A study of Homo sapiens with 4 samples.

Results

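The genes described here encode enzymes of the lysosome and proteins of its membrane. A list of 37 such genes was chosen by symbol, and 35 of them had a transcript cluster (a probe set that summarises 1 locus) among the 17687 gene symbols of the array. NEU1 and GLB1 were not analysed here. Each of the 35 genes had 1 transcript cluster. The samples were 2 arrays of SUIT2 cells exposed to fb-PMT at 30 µM for 24 h and 2 arrays of control SUIT2 cells exposed to phosphate-buffered saline for the same time, all in RPMI medium with serum. fb-PMT is a tetraiodothyroacetic acid derivative with a polyethylene glycol linker and a fluorobenzyl end, made to occupy the thyroid hormone site of integrin αvβ3, and the submitters asked how it alters metabolic gene transcription in cancer cells. All samples were 1 cell line, and nothing states that replicates were separate cultures, so the spread behind each p-value is that among these arrays and may be technical.

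Lysosomes are acidic vesicles that break down proteins, lipids, glycans and nucleic acids taken up from outside or delivered by autophagy. Most of their soluble hydrolases are made in the endoplasmic reticulum, receive a mannose 6-phosphate tag in the Golgi and are carried onward by mannose 6-phosphate receptors. Many of their genes carry an E-box with the core CACGTG near the start site, which the transcription factors TFEB and TFE3 bind when nutrient signalling through mTOR falls. In pancreatic ductal cancer cells, lysosomal digestion is known as a source of amino acids and lipids.

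The labels call SUIT2 glioblastoma, whereas the SUIT-2 line is generally described as derived from a pancreatic ductal carcinoma. Of 6 epithelial markers, all but CDH1 were above the negative controls, among them KRT8, with log2 values of 16.17 and 16.12 on the fb-PMT arrays and 16.43 and 16.45 on the control arrays, and EPCAM, at 15.54 and 15.51 with fb-PMT and 15.14 and 15.22 in controls. Both fb-PMT arrays were below both control arrays for 4 of the 6, KRT8, KRT18, KRT19 and KRT7, beside 22.3% of all transcript clusters. They were above both control arrays for the other 2, EPCAM and CDH1, beside 20.2%. KRT7 was at -0.95 (adjusted p = 0.192) and KRT18 at -0.46 (adjusted p = 0.396). The part of these marker differences in the lysosomal differences was not tested. All 4 glial markers, GFAP and OLIG2 included, lay under the negative controls on every array. Macrophages are rich in lysosomes, and 5 of 6 of their markers (PTPRC, CD14, CD163, AIF1 and CSF1R) were also below on all arrays. The sixth, LYZ, was at 11.61 and 11.52 with fb-PMT and 11.47 and 11.05 in controls. Replicate arrays correlated over all transcript clusters with r = 0.996 for fb-PMT and 0.995 for control, against 0.992 to 0.994 between groups.

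Lysosomal genes were mostly a little higher with fb-PMT, and none passed the test. In limma, 0 of the 35 measured genes had an adjusted p under 0.05, against 0.0979% of all 21448 transcript clusters that were higher and 0.0% that were lower. Of the 35 genes 31 had a positive log2 difference (fb-PMT minus control), where 47.3% of all transcript clusters did. Without those below the negative controls in both groups (defined below), 28 of 31 genes were positive, beside 4980 of 9628 transcript clusters. The median difference of the 35 genes was 0.204, and that of all transcript clusters was -0.0173. For the 31 genes it was also 0.204, beside 0.0101 for the 9628 transcript clusters. At an unadjusted p under 0.05, 7 of the 35 were higher, beside 5.7% of all transcript clusters, and 0 were lower, beside 5.49%. Without those below the negative controls in both groups, 6 of 31 were higher in the same fit, beside 732 of 9628 transcript clusters. The 7 were HEXA, CTSD, PSAP, FUCA1, CTSB, ARSA and LIPA, and the largest difference with both groups above the negative controls was the 1.63-fold of HEXA.

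Array by array, both fb-PMT arrays lay above both control arrays for 15 of the 35 genes, beside 20.2% of all transcript clusters, and below them for 0, beside 22.3%. The other 20 overlapped. Of the 31 genes not below the negative controls in both groups, 13 were above, beside 2561 of 9628 such transcript clusters. The median difference of the 35 genes was 0.271 and 0.214 for fb-PMT array 1 against control arrays 1 and 2, and 0.252 and 0.239 for fb-PMT array 2 against the same arrays. Between replicates it was 0.0161 (fb-PMT array 1 minus 2) and -0.0381 (control array 1 minus 2). Single genes varied far more between replicates, by up to 0.65 between the fb-PMT arrays (CTSF) and 1.08 between the control arrays (GM2A).

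**Figure D1:**
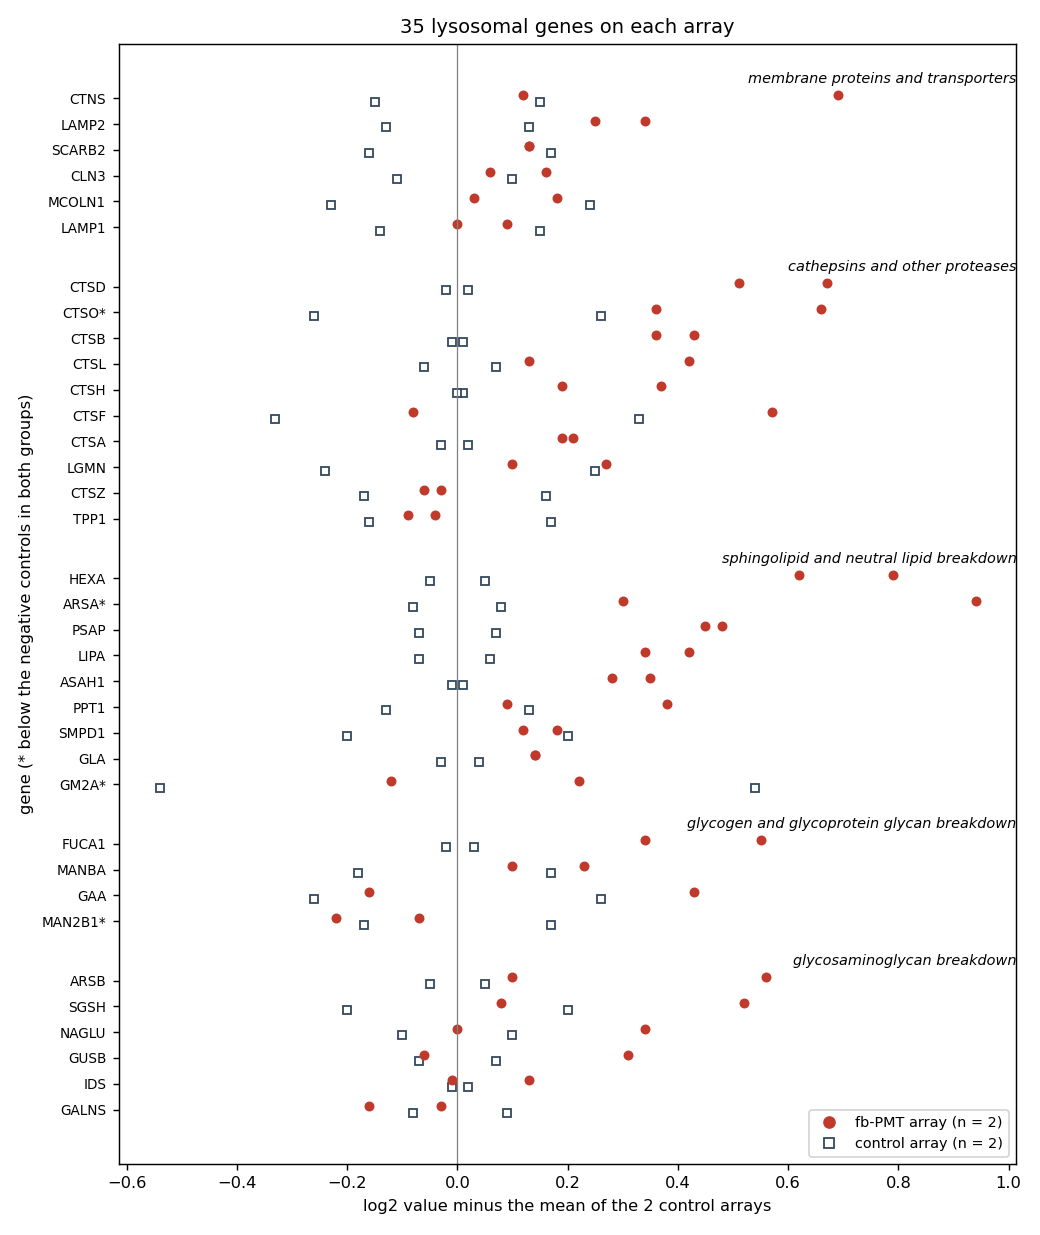
Each gene's log2 value on each array is plotted minus the mean of its 2 control arrays, with fb-PMT arrays as filled circles above and control arrays as open squares below, grouped by role. For 15 of the 35 genes, HEXA, CTSD and PSAP among them, both circles lie right of both squares.

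A gene under the 95th percentile of the array's negative control probe sets (7.15 and 7.29 on the fb-PMT arrays, 7.38 and 7.22 on the control arrays) in each of a group's 2 arrays is described as below the negative controls in that group. Among the 35 genes 4 were so in both groups: ARSA, CTSO, GM2A and MAN2B1. No fold is given for them. FUCA1 was so in controls only, and CTSF was so in controls and above the negative controls on 1 of the 2 fb-PMT arrays. When the 30% of transcript clusters with the lowest mean over all arrays were left out, all 35 genes were retained and 7 were again higher at an unadjusted p under 0.05, beside 7.67% of the transcript clusters retained. Of all transcript clusters, 55.1% lay under the negative controls in both groups. Fitted only on the 9199 transcript clusters above them on both arrays of at least 1 group, 7 of 28 lysosomal genes were higher at that limit, beside 11.6%. FUCA1, among these 7, passed the filter only through its fb-PMT arrays, where it was higher, so this count partly follows from the filter. These are bulk arrays, in which fewer cells of a kind and less RNA per cell cannot be told apart, and the normalization between arrays removes any shift common to most genes.

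The promoters of some of these genes carry the E-box described above. RefSeq promoters (GRCh38.p14, from 250 bases before to 50 after each annotated start) were found for 26 of the 37 genes. The motif CACGTG, which reads the same on both strands, was in 10 of the 26 (38.5%) and in 8.77% of all 27305 genes with a promoter. A longer form, TCACGTGA or GTCACGTG on either strand, both of which contain CACGTG, was in 8 of the 26 (30.8%) and in 3.08% of all genes. This motif was described from lysosomal genes, so its share here is not independent evidence. Promoters of CTSD, CTSA, LAMP1 and MCOLN1 are printed because they carry 1, 2, 6 and 2 E-boxes while their genes differed by 0.59, 0.20, 0.04 and 0.10 on the log2 scale. Capitals mark CACGTG, and each is written 5′ to 3′ on the gene's strand.
CTSD (chr11:1763878-1764177, minus strand): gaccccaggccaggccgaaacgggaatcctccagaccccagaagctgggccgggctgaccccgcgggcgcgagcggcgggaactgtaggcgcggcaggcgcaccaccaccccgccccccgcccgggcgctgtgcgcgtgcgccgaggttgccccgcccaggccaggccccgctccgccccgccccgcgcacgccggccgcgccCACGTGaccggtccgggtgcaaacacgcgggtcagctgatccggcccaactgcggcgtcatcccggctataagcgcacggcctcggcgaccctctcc
CTSA (chr20:45891085-45891384, plus strand): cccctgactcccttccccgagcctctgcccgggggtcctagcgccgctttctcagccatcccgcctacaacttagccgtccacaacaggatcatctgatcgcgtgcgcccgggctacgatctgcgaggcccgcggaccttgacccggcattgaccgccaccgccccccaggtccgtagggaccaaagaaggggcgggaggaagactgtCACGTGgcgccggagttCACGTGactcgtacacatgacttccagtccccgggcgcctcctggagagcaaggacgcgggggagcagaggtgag
LAMP1 (chr13:113296989-113297288, plus strand): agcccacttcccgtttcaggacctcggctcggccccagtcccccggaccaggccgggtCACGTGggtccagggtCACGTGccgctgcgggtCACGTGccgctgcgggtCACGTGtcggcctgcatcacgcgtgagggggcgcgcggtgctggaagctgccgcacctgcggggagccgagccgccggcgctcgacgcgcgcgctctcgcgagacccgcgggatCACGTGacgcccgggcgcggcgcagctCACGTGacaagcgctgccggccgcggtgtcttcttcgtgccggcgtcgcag
MCOLN1 (chr19:7522374-7522673, plus strand): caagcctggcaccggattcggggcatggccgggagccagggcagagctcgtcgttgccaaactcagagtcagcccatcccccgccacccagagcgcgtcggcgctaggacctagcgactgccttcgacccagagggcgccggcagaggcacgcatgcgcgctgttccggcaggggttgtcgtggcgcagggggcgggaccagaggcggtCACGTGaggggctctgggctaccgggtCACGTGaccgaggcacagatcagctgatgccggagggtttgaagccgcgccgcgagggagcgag

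The 9 measured genes with CACGTG had a median log2 difference of 0.138 (range -0.10 to 0.59, 8 of 9 positive), and the 15 with a promoter but no such match had a median of 0.138 (range -0.15 to 0.44, 12 of 15 positive). The 11 measured genes with no promoter in the table, HEXA, PSAP, ARSA and LAMP2 among them, had a median of 0.314 and are in neither set. Among the 9, CTSD and ARSB, with 1 E-box each, had the highest differences and LAMP1, with 6, was next to last. When 1 array was left out, ARSB ran from 0.10 to 0.57 and LAMP1 from -0.10 to 0.18, so this order is not firm. The E-box counts are descriptions of letters in a 300-base window. Whether they go with the differences was not tested. Relative to the annotated start, the E-box of CTSD was centred at -44 and those of CTSA at -39 and -22. LAMP1, with 6, had 4 from -189 to -139 and the others at -25 and 2.

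**Figure D2:**
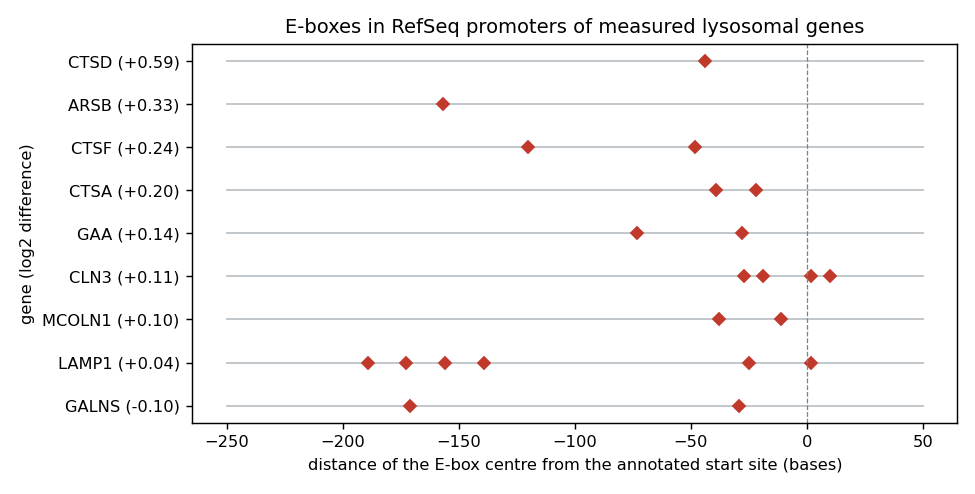
Diamonds mark the centre of each CACGTG against its distance in bases from the annotated start site (dashed line) for the 9 measured genes that have one, ordered by log2 difference (in brackets). CTSD, with 1 E-box, is at the top, and LAMP1, with 6, is next to last; CLN3 has 2 annotated starts, so each of its 2 E-boxes appears at 2 distances.

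Sphingolipid and neutral lipid breakdown had the highest median log2 difference of the 5 roles, 0.314. All 9 measured genes of this role were higher with fb-PMT, beside 47.3% of all transcript clusters. At an unadjusted p under 0.05 there were 4, beside 5.7%, and after adjustment 0, and 1 of the 4 (ARSA), like GM2A, was below the negative controls in both groups. HEXA, the alpha subunit of beta-hexosaminidase that cleaves GM2 ganglioside, had log2 values of 11.73 and 11.56 on the fb-PMT arrays and 10.89 and 10.99 on the control arrays. The groups did not overlap, and the difference was 0.70 (SE 0.15, adjusted p = 0.255). PSAP, the precursor of the saposins that present sphingolipids to their enzymes, was at 13.79 and 13.82 with fb-PMT against 13.41 and 13.27 in controls. That is 1.38-fold higher (log2 difference 0.47, SE 0.15, adjusted p = 0.378), and again no array crossed over.

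LIPA, the acid lipase that frees cholesterol and fatty acids from lipoprotein esters, was at 10.67 and 10.75 with fb-PMT and 10.39 and 10.26 in controls (1.3-fold higher, adjusted p = 0.445). ASAH1, acid ceramidase, was at 12.76 and 12.69 with fb-PMT and 12.42 and 12.40 in controls, a log2 difference of 0.31 (SE 0.15, adjusted p = 0.503). Both genes had close replicates and separate groups. ARSA, the arylsulfatase that removes sulfate from sulfatides, had 4.94 and 5.58 with fb-PMT and 4.56 and 4.72 in controls. Its groups did not overlap, but all 4 values were below the negative controls and the difference of 0.62 moved between 0.30 and 0.93 when 1 array was left out.

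Smaller differences were seen for the rest of this role. GLA, alpha-galactosidase A, was separate between groups with a log2 difference of only 0.14 (95% confidence interval -0.22 to 0.50). PPT1, a thioesterase that removes palmitate from proteins, differed by 0.24, and SMPD1, acid sphingomyelinase, by 0.15, both with overlapping groups. GM2A, the activator that lifts GM2 for hexosaminidase, was below the negative controls in both groups, with the control arrays 1.08 apart.

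Among cathepsins and other proteases, 8 of 10 were higher, beside 47.3% of all transcript clusters, with a median log2 difference of 0.259. Both fb-PMT arrays lay above both control arrays for 6, beside 20.2%, and 1 of these (CTSO) was below the negative controls in both groups. At an unadjusted p under 0.05 there were 2, CTSD and CTSB, beside 5.7%, and after adjustment 0. CTSD, the aspartic protease cathepsin D, was at 12.87 and 13.03 with fb-PMT against 12.34 and 12.38 in controls. It was 1.5-fold higher (log2 difference 0.59, SE 0.15, adjusted p = 0.32), with both fb-PMT arrays well clear of the controls. CTSB, the cysteine protease cathepsin B, was at 13.73 and 13.80 with fb-PMT and 13.36 and 13.38 in controls (1.31-fold higher, adjusted p = 0.42). The 2 arrays of each group lay close together and the groups did not overlap.

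CTSH, an aminopeptidase, was at 10.84 and 11.02 with fb-PMT and 10.66 and 10.65 in controls, a difference of 0.27. CTSL, an endopeptidase of the same papain family, was at 10.64 and 10.93 with fb-PMT and 10.58 and 10.45 in controls, a difference of 0.28. In both genes 1 fb-PMT array lay close to the controls, and their adjusted p-values were 0.563 and 0.598. CTSA, the carboxypeptidase that protects neuraminidase and beta-galactosidase in a complex, was at 15.73 and 15.71 with fb-PMT and 15.49 and 15.54 in controls (1.15-fold, adjusted p = 0.641). CTSO, a little-studied cysteine cathepsin, was at 5.97 and 6.27 with fb-PMT and 5.35 and 5.87 in controls, all below the negative controls.

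The other proteases had overlapping groups. LGMN, legumain, which cuts after asparagine, differed by 0.18, and CTSF, a further cysteine cathepsin, by 0.24 with control arrays below the negative controls. CTSZ, a carboxypeptidase, was at -0.04 (95% confidence interval -0.47 to 0.39) and TPP1, which removes tripeptides, at -0.07 (-0.50 to 0.36). Whether either differed from CTSB was not tested.

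Glycogen and glycoprotein glycan breakdown had 4 measured genes with a median of 0.153. FUCA1, the alpha-fucosidase, was at 7.26 and 7.47 with fb-PMT, just above the negative controls, and at 6.95 and 6.90 in controls, below them. It was at least 1.05-fold higher, with a fitted log2 difference of 0.44 (SE 0.16, adjusted p = 0.408) and separate groups. MANBA, beta-mannosidase, differed by 0.17 and GAA, which digests glycogen, by 0.14, with overlap in both. MAN2B1, the alpha-mannosidase, had the most negative difference of the 35 genes, -0.15, with log2 values of 6.86 and 6.71 on the fb-PMT arrays and 7.10 and 6.76 on the control arrays, all below the negative controls.

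Glycosaminoglycan breakdown showed 5 of 6 genes higher, beside 47.3% of all transcript clusters, 0 at an unadjusted p under 0.05, and a median of 0.145. ARSB, which removes sulfate from dermatan and chondroitin sulfate, was at 9.58 and 9.12 with fb-PMT and 9.07 and 8.97 in controls. The groups were separate by a small margin, and the difference of 0.33 (adjusted p = 0.589) rested on fb-PMT array 1, without which it was 0.10. Enzymes of heparan sulfate breakdown differed by 0.30 (SGSH, a sulfamidase), 0.17 (NAGLU, an N-acetylglucosaminidase) and 0.06 (IDS, iduronate sulfatase), and GUSB, beta-glucuronidase, by 0.12. GALNS, which acts on keratan sulfate, was at -0.10 (95% confidence interval -0.49 to 0.29).

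Membrane proteins had the lowest median of the roles, 0.12, although all 6 differences were positive, beside 47.3% of all transcript clusters. LAMP2, a heavily glycosylated protein of the lysosomal membrane that also serves chaperone-mediated autophagy, was at 12.21 and 12.12 with fb-PMT and 11.74 and 12.00 in controls (difference 0.30, adjusted p = 0.56). Groups were separate, with fb-PMT higher, for 1 of the 6, LAMP2. That share is not above the 20.2% of all transcript clusters, so it does not set LAMP2 apart. CTNS, the cystine exporter, was at 8.38 and 7.81 with fb-PMT and 7.84 and 7.54 in controls, so its difference of 0.40 (adjusted p = 0.584) came mainly from fb-PMT array 1 and was 0.12 without it. LAMP1, the partner of LAMP2, was at 11.88 and 11.97 with fb-PMT and 11.74 and 12.03 in controls, a difference of 0.04 (95% confidence interval -0.38 to 0.46). SCARB2, a receptor-like protein of the lysosomal membrane, differed by 0.13, CLN3, a membrane protein lost in juvenile Batten disease, by 0.11 and the calcium channel gene MCOLN1 by 0.10, all with overlap. Differences between roles were not tested.

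**Figure D3:**
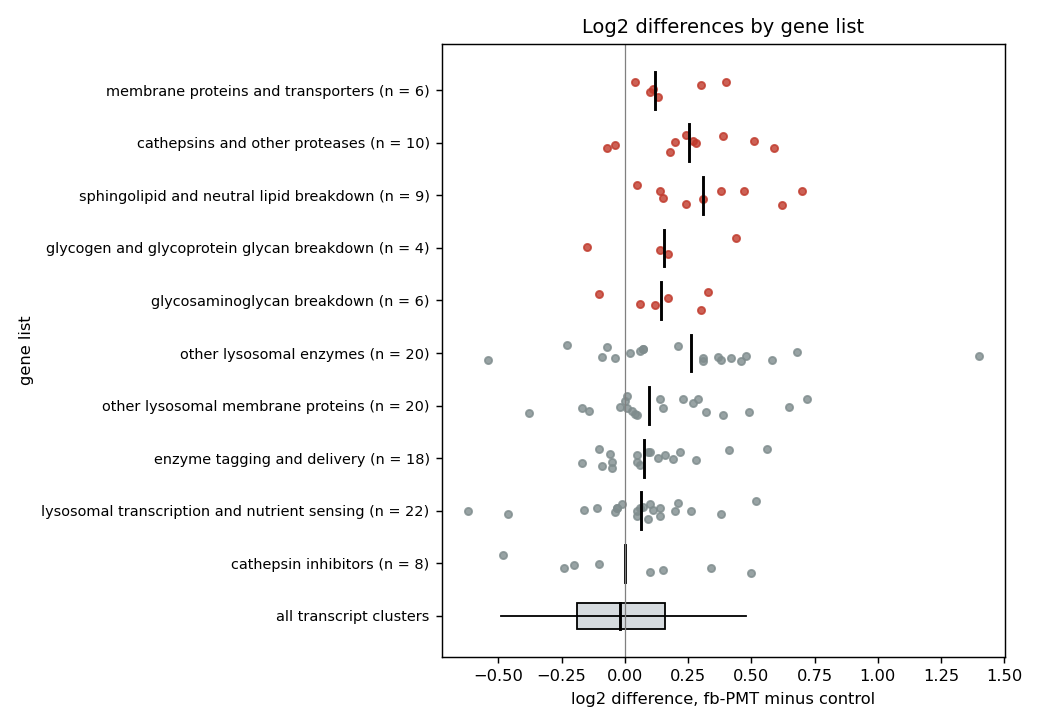
Points are single genes at their log2 difference (fb-PMT minus control), red for the 5 roles described above and grey for 5 other lysosomal lists, with a black bar at each list's median. The bottom row gives all transcript clusters as the 5th to 95th percentile (line, -0.49 to 0.48), the quartiles (box) and the median. Medians run from 0.314 for lipid breakdown down to 0.00112 for cathepsin inhibitors.

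Leaving out 1 array showed which differences rested on few values. The sign was the same under all 4 omissions for 20 of the 35 genes and changed under at least 1 for 15. The matching share of all transcript clusters is not given, so whether 20 of 35 exceeds its background was not tested. HEXA stayed between 0.62 and 0.79, CTSD between 0.50 and 0.67, PSAP between 0.40 and 0.54 and CTSB between 0.36 and 0.43. The count higher at an unadjusted p under 0.05 was 4 without fb-PMT replicate 1 (beside 3.92% of all transcript clusters) and 3 without fb-PMT replicate 2 (beside 3.72%). It was 4 without control replicate 1 (beside 4.7%) and 3 without control replicate 2 (beside 5.91%). The median difference was 0.129 without fb-PMT replicate 1. With a prior variance that follows intensity, 4 of the 35 genes rose past an adjusted p of 0.05, beside 1.37% of all transcript clusters: HEXA (adjusted p = 0.0142), CTSD (0.0154), PSAP (0.0279) and CTSB (0.0486). In the fit of the 9199 transcript clusters above the negative controls, HEXA rose past that threshold (adjusted p = 0.0327). It was 1 of 28 lysosomal genes tested there, a share near the 2.55% of those transcript clusters.

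**Figure D4:**
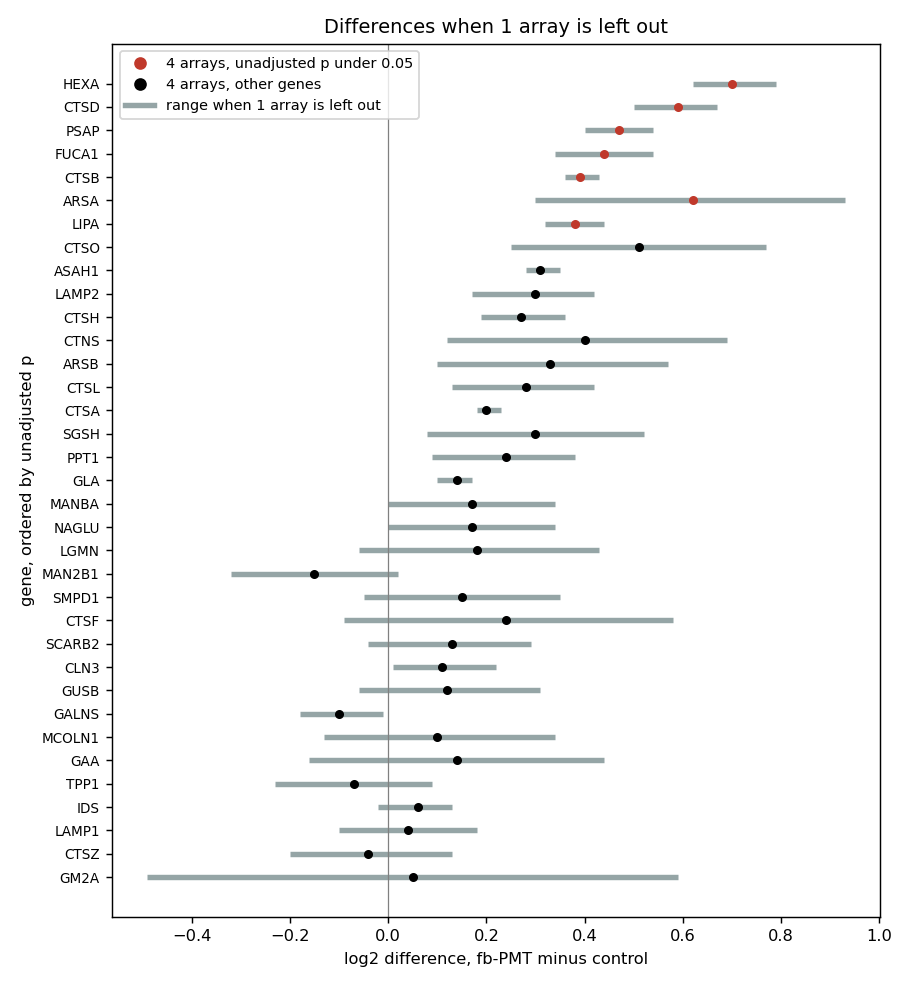
Points give the log2 difference (fb-PMT minus control) from all 4 arrays, red where the unadjusted p was under 0.05, and grey bars span the lowest to the highest value when 1 array was left out. The bars of HEXA, CTSD, PSAP and CTSB stay right of 0, while that of GM2A runs from -0.49 to 0.59.

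Other lysosomal enzymes were read from a further list, of which 20 of 26 genes were measured. Of the 20, 15 were higher, beside 47.3% of all transcript clusters, and the median was 0.259. At an unadjusted p under 0.05, 4 were higher, beside 5.7%, and 1 was lower, beside 5.49%, and 0 passed after adjustment. CTSS, an elastin-cleaving cathepsin used in antigen presentation, was at 12.05 and 11.97 with fb-PMT against 10.65 and 10.58 in controls. At 2.63-fold higher (log2 difference 1.40, SE 0.15) it just missed the threshold (adjusted p = 0.0602). ACP2, lysosomal acid phosphatase, was 1.6-fold higher (adjusted p = 0.293) and HGSNAT, an acetyltransferase of heparan sulfate breakdown, 1.34-fold (adjusted p = 0.401). CTSC, dipeptidyl peptidase of the papain family, was at -0.07 with overlapping groups.

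A list of other membrane proteins had 16 of 20 genes higher, beside 47.3% of all transcript clusters, with a median of 0.0946. At an unadjusted p under 0.05, 3 were higher, beside 5.7%, and after adjustment 0. CD164, a sialomucin, was at 13.95 and 14.16 with fb-PMT and 13.34 and 13.46 in controls (1.57-fold higher, adjusted p = 0.297). TPCN1, a cation channel of endosomes and lysosomes, was 1.4-fold higher (adjusted p = 0.378), and LAPTM5 was below the negative controls in both groups. NPC1, the cholesterol exporter, differed by 0.23, and NPC2 was not analysed here.

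Genes that tag and deliver the hydrolases showed a median of 0.0733, with 12 of 18 higher, beside 47.3% of all transcript clusters. At an unadjusted p under 0.05 there was 1, a share near the 5.7% of all transcript clusters, and after adjustment 0. That gene was GRN, the progranulin precursor, at 11.93 and 11.79 with fb-PMT and 11.10 and 11.50 in controls (1.47-fold higher, adjusted p = 0.394). SUMF1, which activates sulfatases such as ARSA, ARSB, SGSH, IDS and GALNS, was at least 1.19-fold higher (adjusted p = 0.501), and VPS35 of the retromer, which recycles receptors, was 1.21-fold higher (adjusted p = 0.59). The 2 mannose 6-phosphate receptors differed by 0.22 (M6PR) and -0.09 (IGF2R), and GNPTAB, the enzyme that starts the tag, by 0.16.

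The transcription factors and nutrient sensors had a median of 0.0651 over 22 genes, with 1 higher and 0 lower at an unadjusted p under 0.05, a share near the background of 5.7% and 5.49%, and 0 after adjustment. RRAGD, a Rag GTPase that places mTORC1 on lysosomes and is a known TFEB target, was at 10.48 and 10.42 with fb-PMT and 9.91 and 9.94 in controls (1.43-fold higher, adjusted p = 0.346). TFE3 was at 8.02 and 8.17 with fb-PMT and 8.14 and 7.29 in controls, a wide overlap around a difference of 0.38 (adjusted p = 0.67). TFEB and MITF lay under the negative controls on every array. The activity of these factors is set largely by their location in the cell, which arrays do not measure.

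Of 8 cathepsin inhibitors 4 were higher, beside 47.3% of all transcript clusters, with a median of 0.00112. CSTA, CST6, SERPINB3 and SERPINB4 lay under the negative controls on every array, so this median rests partly on dim genes. Among the rest, CST4, CST1 and CST3 were higher and CSTB was lower. Groups were separate with fb-PMT higher for 2 of the 8, beside 20.2%, and lower for 3, beside 22.3%. At an unadjusted p under 0.05, 1 was higher, beside 5.7%, and 1 lower, beside 5.49%, and after adjustment 0. CST4, a salivary-type cystatin, was 1.41-fold higher (adjusted p = 0.356) and its near copy CST1 1.26-fold (adjusted p = 0.467). The sequences of these cystatins resemble each other, so their values may not be separate. CSTA was below the negative controls in both groups, and CSTB, the main cytosolic inhibitor of cathepsins, was at 14.99 and 15.01 with fb-PMT and 15.16 and 15.04 in controls, a difference of -0.10.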

How the data were processed

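The deposited log2 values were made by the authors with RMA, which corrects background, normalizes between arrays and summarises probe sets. The submitters' processing notes name the software as Transcriptome Analysis Console 4.0.1.36. RMA shrinks differences of dim probe sets. The genome build is not given in the sources used here. Of 24351 probe sets, 2903 controls were left out and 21448 transcript clusters tested, named by the platform annotation. The test was limma (3.58.1; R version 4.3.3) with lmFit and eBayes without trend (fb-PMT minus control; two-sided; Benjamini-Hochberg over all 21448; threshold 0.05). With 2 residual and 3.72 prior degrees of freedom, the few arrays limit precision: the median SE was 0.175. On simulated data for this comparison with 21448 transcript clusters, 10.8% of 2-fold and 88.4% of 4-fold changes were recovered.

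Members and lists were chosen with earlier results of these data known, so the direction of the list is not independent evidence. Genes named are the members, of which the 14 with the smallest p, the largest fall and the largest difference of each role are given per array, up to 3 genes by smallest p from each other list, and a preset few (such as TFEB, M6PR and CSTB). A fold against a group below the negative controls is a bound ("at least"), set against that percentile. Alternatives tried were an intensity trend, a block for the replicate number, filters on dim transcript clusters, renewed normalization, other thresholds and leaving out each array. The numbers shared by fb-PMT and control arrays do not show pairing: the deviations of same-numbered arrays correlated at 0.042 over transcript clusters.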

Additional observations from a re-analysis of the deposited data

How the results depend on the processing

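Over the 11 alternatives that give values of single genes, 354 of 378 values of single lysosomal genes kept their direction and their side of the threshold, 5 passed only under the alternative and 19 turned sign, all when 1 array was left out. The median log2 difference of the 35 genes ran from 0.129 to 0.267 when 1 array was left out, the count higher at an unadjusted p under 0.05 from 3 to 4, and the count with separate groups from 19 to 25, where fewer arrays make separation easier. Transcript clusters past the threshold were 1 with the replicate block, 403 with an intensity trend, 67 without the lowest 30%, 318 with only those above the negative controls, 73 at a threshold of 0.10, and 1 to 9 with an array omitted. Under the replicate block 6 of the 35 genes were higher at an unadjusted p under 0.05, beside 5.66% of all transcript clusters, and 0 passed after adjustment. Lysosomal genes past the threshold were 4 with an intensity trend, beside 1.37% of all transcript clusters that rose past it. With only transcript clusters above the negative controls there was 1 (HEXA) of 28, a share near the 2.55% of those tested. The cause of these changes was not tested. For the 19 to 25 genes with separate groups when 1 array was left out, the matching share of all transcript clusters is not given. The 20.2% above holds for all 4 arrays only. Whether these counts exceed their background was therefore not tested. Ranges that crossed 0 when 1 array was left out were -0.10 to 0.18 for LAMP1, -0.04 to 0.29 for SCARB2, -0.13 to 0.34 for MCOLN1, -0.09 to 0.58 for CTSF, -0.20 to 0.13 for CTSZ, -0.23 to 0.09 for TPP1, -0.06 to 0.43 for LGMN, -0.05 to 0.35 for SMPD1, -0.49 to 0.59 for GM2A, -0.16 to 0.44 for GAA, -0.32 to 0.02 for MAN2B1, 0.00 to 0.34 for MANBA, -0.06 to 0.31 for GUSB, 0.00 to 0.34 for NAGLU and -0.02 to 0.13 for IDS.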
